A study of Mus musculus with 20 samples.

Results

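The day 3 experiment of a *Mettl3* knockout series measured RNA by sequencing in mouse intestinal crypt cells sorted into an Lgr5-high and an Lgr5-low gate. It holds 2 knockout libraries, 1 per gate, picked by title out of the 20 libraries of the series, and sets them against 4 WT libraries, 2 per gate. The knockout libraries are labelled *Mettl3*-/-, strain C57BL/6, with tamoxifen for 4 days. Per the protocols such mice carried *Mettl3* fl/fl together with Lgr5-EGFP-IRES-CreERT2 and Villin-CreERT2. Cre thus sat under the *Lgr5* promoter, active in stem cells, and under the Villin promoter, active throughout the intestinal epithelium. The WT libraries, also C57BL/6, are labelled wild type and untreated, whereas in the protocols the Cre-free *Mettl3* fl/fl animals received tamoxifen (20 mg/ml) as well. An effect of tamoxifen therefore cannot be told apart from the genotype, nor an effect of Cre itself. The labels do not say what set the gates in WT mice, from which event day 3 is counted, or whether the 2 knockout libraries came from the same animal. If they did, p-values measure only the spread between libraries.

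*Mettl3* encodes the catalytic subunit of the complex that writes N6-methyladenosine (m6A) on messenger RNA, a mark through which reader proteins set the decay and translation of transcripts. *Lgr5* marks the stem cells of the crypt base. Their progeny divide in the crypt and become absorptive enterocytes or secretory goblet, enteroendocrine, Paneth or tuft cells, so that a comparison in both gates shows which genes moved alike in stem cells and in their neighbours at the earliest time sampled.

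Levels are given in FPKM, which divides the fragments of a gene by its transcript length and by the mapped fragments of the library. Changes are differences of log2(FPKM + 1), knockout minus WT, a scale that shrinks the changes of lowly expressed genes. By a rough estimate the knockout libraries held 17000000 and 19100000 fragments and the WT libraries 15600000 to 25500000. *Mettl3* itself (chromosome 14, 52294841 to 52305128, mm10) stood at 3.61 FPKM in the Lgr5-high and 3.49 in the Lgr5-low knockout library, against 4.86 and 4.58 in WT Lgr5-high and 4.23 and 3.42 in WT Lgr5-low. The Lgr5-low knockout value lay between its WT values, and the change of -0.21 ± 0.11 (SE) did not pass (limma adjusted p = 0.320). A value over the whole gene cannot check the loss of an exon, so knockout means the libraries labelled *Mettl3*-/-. *Lgr5* stood at 9.18 FPKM in the Lgr5-high and 0.992 in the Lgr5-low knockout library, against 10.1 and 10.4 in WT Lgr5-high and 0.715 and 0.974 in WT Lgr5-low, so the gates were apart in both genotypes. The 27 immune markers summed to 13.7 and 23.2 FPKM in knockout, against 18.5 and 9.23 in WT Lgr5-high and 30.7 and 15.2 in WT Lgr5-low, with 19 of 27 under 1 FPKM in all 6 libraries and *Ptprc* at or under 0.124. The 7 red blood cell markers summed to 1.87 and 1.35 FPKM in knockout and to 0.107 to 1.02 in WT.

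Genes of the p53 response, cholesterol synthesis and ribosome biogenesis were among those higher in both gates at day 3, and genes of fatty acid oxidation and xenobiotic metabolism among those lower. With gate as a block, 311 of 12341 genes tested passed (limma, Benjamini-Hochberg adjusted p under 0.05), which is 2.52%. Of these, 180 were higher (1.46%) and 131 lower (1.06%). Scaling to median ratios turned that split to 87 higher and 131 lower, and quantile normalization to 134 higher and 159 lower. All 311 lay outside both WT libraries of their gate, on the same side in both gates, and so did 46.504% of all genes tested. The median change over all genes tested was 0.04, with 57.378% above 0. Among the 311 were 12 of the 45 genes that met the level for testing through the knockout libraries alone. In these knockout had to lie above WT. A further 10 of the 311 were among the 212 genes that met it through WT libraries alone. The count rests on a small spread between few libraries: leaving out any 1 of the 6 left 3 to 23 calls. Dropping both WT libraries numbered 1 left 15, and dropping both numbered 2 gave 833. The fit takes the libraries of a gate as independent, although WT libraries of the same number deviated together. With WT libraries of 1 number, and the 2 knockout libraries, taken as correlated sets (limma, correlation 0.283), 24 calls were left, all among the 311. *Acta1*, *Phlda3*, *Etv4*, *Clca1*, *Tmem267*, *Hsd17b13*, *Pm20d1*, *Nkiras2* and *C1qtnf12* were among them, and no gene of ribosome biogenesis, xenobiotic metabolism or the enterocyte and enteroendocrine lists was. The p53, cholesterol, fatty acid oxidation and goblet lists kept 1 call each. When the spread was taken from all 12 tissue libraries of the series 6 genes passed: *Phlda3*, *Acta1* and the pseudogene *Gm2574* (higher), *Hsd17b13* (lower) and a pair of gene models of *Nnt* with opposite signs. Every other call named here for knockout against WT was lost in that fit. The *Nnt* model that was lower met the level for testing through WT libraries alone, so that its fall largely followed from that level.

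Within a gate there is 1 knockout library and no test. A gene counted as past the fold when it differed from the WT mean by at least 1 on the log2 scale and lay outside both WT libraries. In Lgr5-high, 103 genes were past the fold upward (0.835%) and 77 downward (0.624%). Lgr5-low had 103 upward (0.835%) and 82 downward (0.664%). Past the fold in both gates were 34 genes upward (0.276%) and 31 downward (0.251%), while 12 had opposite signs. Dropping both WT libraries numbered 2 gave 327 genes past the fold in each gate and 117 in both with the same sign. Of the 65 with the same sign, 44 passed the block fit, 20 of them higher and 24 lower. Among the 65 were 12 pseudogenes and 7 genes with exons shared with another gene on the same strand, for which the split of fragments between copies is uncertain.

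**Figure D1:**
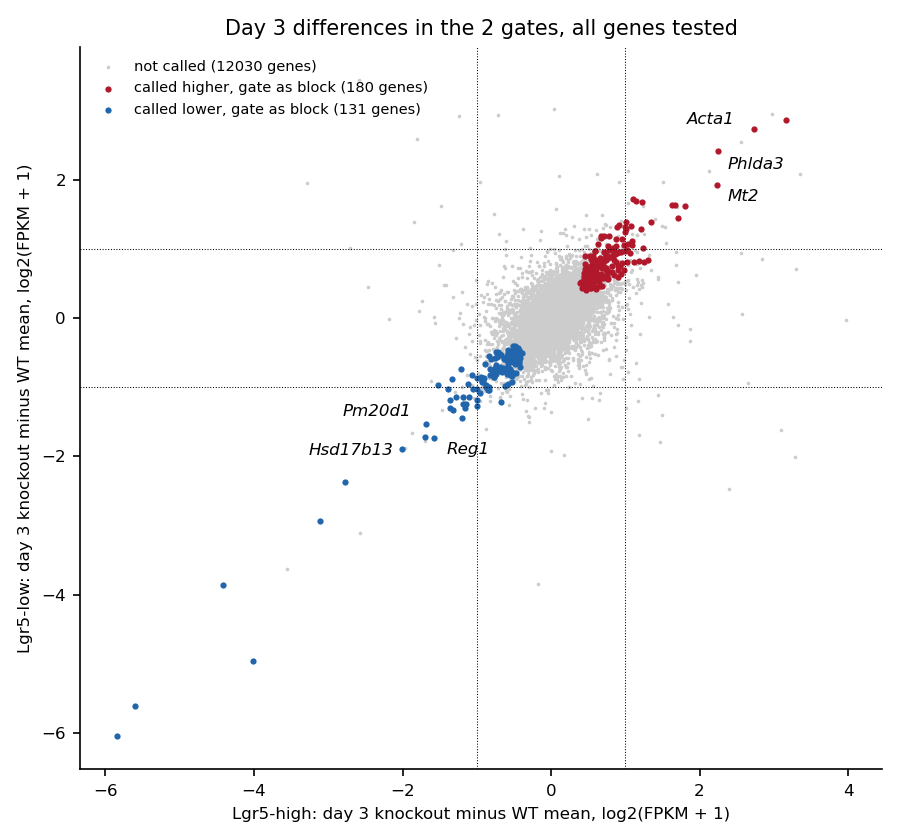
Difference of the day 3 knockout library from the mean of its 2 WT libraries, log2(FPKM + 1), in Lgr5-high (x axis) and Lgr5-low (y axis). Each point is 1 of 12341 genes, red for the 180 called higher, blue for the 131 called lower and grey for the rest, with dotted lines at 1 and -1. The called genes lie along the diagonal, *Acta1* at 2.73 and 2.73 and *Phlda3* at 2.24 and 2.42.

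*Phlda3* (chromosome 1, 135766119 to 135769136), a p53 target whose product restrains AKT signalling, stood at 10.6 FPKM in the Lgr5-high and 7.34 in the Lgr5-low knockout library, against 1.305 and 1.62 in WT Lgr5-high and 0.685 and 0.448 in WT Lgr5-low. Both knockout libraries lay above all 4 WT libraries. It rose by 2.33 ± 0.12 on the log2 scale (adjusted p = 0.00472), by 2.24 in Lgr5-high and 2.42 in Lgr5-low, and passed in 17 of 21 alternative fits. Of 31 p53 targets that reached the level for testing in both genotypes, 6 passed, all higher, against 2.52% of all genes tested. Their median was 0.33, against 0.04 over all genes tested. With a further member that reached it in knockout alone, *Eda2r*, 7 of 32 were called, and other ways of scaling the libraries gave between 4 and 8. *Eda2r*, a receptor of the TNF receptor family, stood at 2.09 and 1.33 FPKM in knockout, against 0.285 and 0.645 in WT Lgr5-high and 0.0981 and 0.150 in WT Lgr5-low. Every WT library was under the level for testing, so that knockout and WT had to lie apart, and no test is given. *Plk2*, a kinase of the stress response, stood at 5.11 and 3.13 FPKM in knockout, against 1.76 and 2.28 in WT Lgr5-high and 1.27 and 1.43 in WT Lgr5-low (0.92 ± 0.12, adjusted p = 0.0386). *Aen*, an apoptosis-enhancing nuclease, rose by 0.78 ± 0.08, adjusted p = 0.0287. The remaining called members were the proapoptotic genes *Bax* (0.62) and *Bbc3* (0.53) and the RNA-binding gene *Zmat3* (0.72). *Cdkn1a*, the cell cycle inhibitor induced by p53, stood at 17.0 and 34.6 FPKM in knockout, against 10.1 and 10.7 in WT Lgr5-high and 25.9 and 28.4 in WT Lgr5-low. It was above WT within each gate but did not pass (0.50 ± 0.10, adjusted p = 0.0647). Of 27 cell death genes none passed with limma, the closest being the caspase gene *Casp1* (-0.49 ± 0.10, adjusted p = 0.0604).

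**Figure D2:**
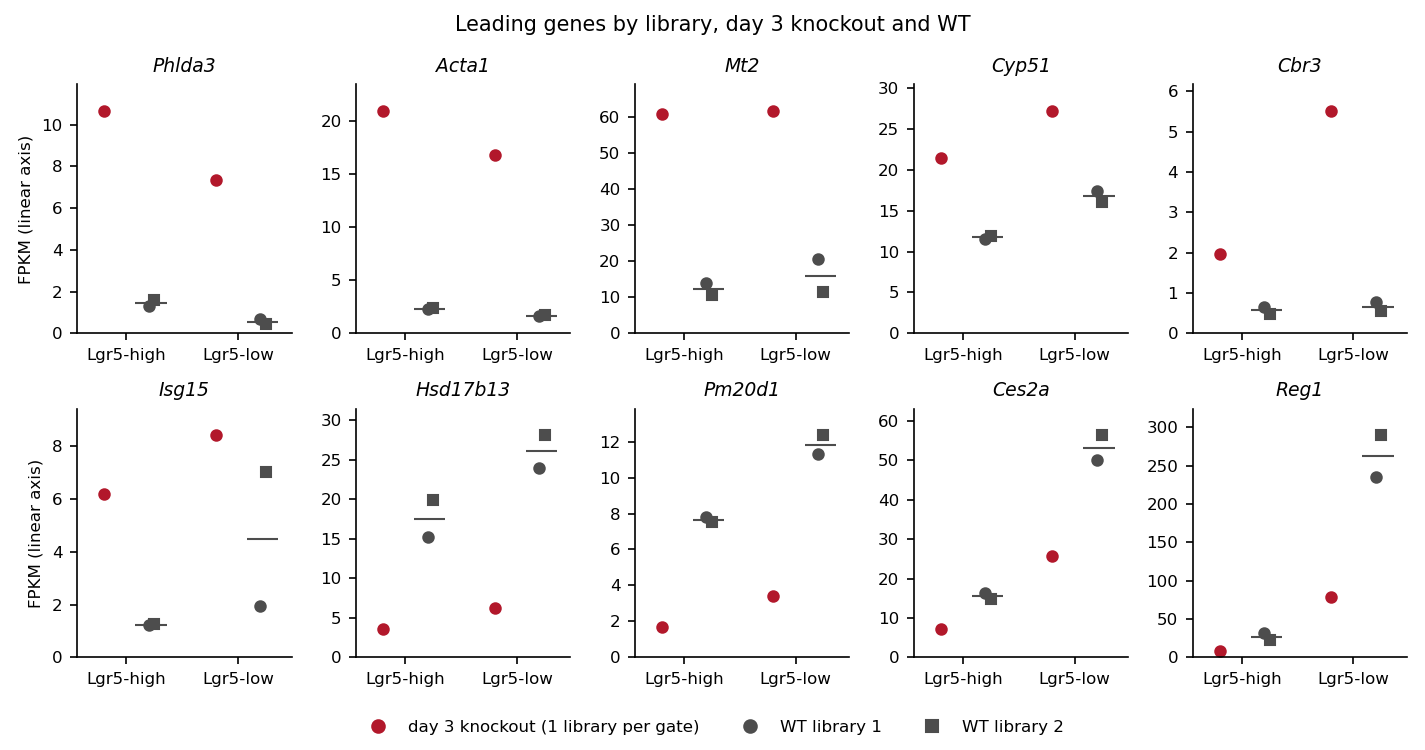
FPKM of 10 genes (linear axes from 0) by gate, with the single day 3 knockout library in red and WT libraries 1 (circle) and 2 (square) in grey with their mean as a line. The knockout library is above both WT libraries of its gate for *Phlda3*, *Acta1*, *Mt2*, *Cyp51*, *Cbr3* and *Isg15* and below both for *Hsd17b13*, *Pm20d1*, *Ces2a* and *Reg1*. In proportion to the level, the narrowest gap is that of *Isg15* in Lgr5-low (8.41 in knockout, 7.02 in WT library 2).

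*Mt2* (chromosome 8, 94172664 to 94173568), a metallothionein that binds zinc and copper and is induced by metals and stress, stood at 60.7 and 61.6 FPKM in the Lgr5-high and Lgr5-low knockout libraries, against 13.9 and 10.6 in WT Lgr5-high and 20.5 and 11.6 in WT Lgr5-low. The knockout libraries were nearly equal, and far above all 4 WT libraries. It rose by 2.08 ± 0.24, adjusted p = 0.0347. *Mt1*, its paralog, stood at 168 and 141 FPKM in knockout, against 87.8 and 76.0 in WT Lgr5-high and 97.8 and 69.9 in WT Lgr5-low, above WT in each gate but not past the threshold (0.90 ± 0.16, adjusted p = 0.0559). *Mt2* was the only 1 of the 3 metallothionein-list genes tested to pass. The 250 bases upstream of the *Mt2* start, from RefSeq on GRCm38.p6 (chr8:94172368-94172617, plus strand), are printed because metallothionein genes are known to be controlled through short metal response elements. Capitals mark matches to the core of that element, TGCGCNC or TGCACNC on either strand, of which there were 3.
Mt2: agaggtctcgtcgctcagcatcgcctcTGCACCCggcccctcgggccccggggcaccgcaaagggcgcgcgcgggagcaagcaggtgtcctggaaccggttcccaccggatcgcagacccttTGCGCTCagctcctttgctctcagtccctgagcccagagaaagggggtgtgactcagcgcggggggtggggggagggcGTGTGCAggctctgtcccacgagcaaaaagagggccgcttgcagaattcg
At least 1 match was present in 21.4% of 32851 RefSeq promoters of that length, in 29.8% of those of the genes tested and in 29.4% of those of the genes called higher. A match describes letters and is not evidence of binding.

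*Cbr3* (chromosome 16, 93683215 to 93690990), a carbonyl reductase and target of the redox factor NRF2, stood at 1.96 and 5.51 FPKM in the Lgr5-high and Lgr5-low knockout libraries, against 0.663 and 0.481 in WT Lgr5-high and 0.772 and 0.560 in WT Lgr5-low. Both knockout libraries lay above all 4 WT libraries, the Lgr5-low one more so. It reached the level for testing in knockout alone, so that knockout had to lie above WT, and no test is given. Of 27 other NRF2 and redox targets tested, 1 passed, against 2.52% of all genes tested, and the median was 0.15. It was *Akr1b8*, an aldo-keto reductase, at 4.08 and 12.4 FPKM in knockout, against 2.25 and 2.52 in WT Lgr5-high and 6.87 and 8.10 in WT Lgr5-low (0.62 ± 0.10, adjusted p = 0.0460). Its level was above WT within each gate, while the gates differ from each other by more than knockout and WT.

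*Isg15* (chromosome 4, 156199424 to 156200818), a ubiquitin-like protein induced by interferon, stood at 6.18 FPKM in the Lgr5-high and 8.41 in the Lgr5-low knockout library, against 1.22 and 1.25 in WT Lgr5-high and 1.94 and 7.02 in WT Lgr5-low. WT Lgr5-low library 2 alone was higher than the Lgr5-high knockout library. The change of 1.32 ± 0.41 did not pass (adjusted p = 0.138). The 250 bases upstream of its start (chr4:156200819-156201068, minus strand, GRCm38.p6, RefSeq) are printed with matches to the interferon-stimulated response element (GAAA, any 2 bases, GAAA, on either strand) in capitals. Overlapping matches are joined in 1 run.
Isg15: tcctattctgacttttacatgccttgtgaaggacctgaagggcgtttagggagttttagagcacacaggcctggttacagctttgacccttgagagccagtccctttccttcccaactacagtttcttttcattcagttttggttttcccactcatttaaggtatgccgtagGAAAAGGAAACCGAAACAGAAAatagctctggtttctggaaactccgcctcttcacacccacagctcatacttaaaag
A match was present in 2.98% of RefSeq promoters of that length and in 2.48% of those of the genes tested. Of 35 interferon-stimulated genes that reached the level for testing in both genotypes, 1 passed, higher, and the median was 0.23. Of all 37 tested, 2 were called, against 2.52% of all genes tested, and under other scalings of the libraries 0 or 1. *Bst2*, which tethers budding virus to the cell, stood at 19.7 and 22.8 FPKM in knockout, against 12.6 and 14.3 in WT Lgr5-high and 12.4 and 14.1 in WT Lgr5-low (0.63 ± 0.10, adjusted p = 0.0481). *Ifi27l2a*, an interferon-induced gene, stood at 2.54 and 2.12 FPKM in knockout and at 0.250 to 0.756 in WT, and reached the level for testing in knockout alone. For *Bst2* both knockout libraries were above all 4 WT libraries, and for *Ifi27l2a* they had to be, given that level. None of 8 interferon-induced GTPases passed with limma (smallest adjusted p = 0.0985), and none of 15 genes of MHC class I antigen processing (smallest adjusted p = 0.0506) or 7 of MHC class II (smallest adjusted p = 0.215). The median of the class II list changed sign with the scaling.

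A set of sterol genes rose in both gates. Of 24 genes of cholesterol synthesis and uptake, 7 passed, all higher (3 to 7 under other scalings), against 2.52% of all genes tested. The median was 0.42, against 0.04 over all genes tested. *Cyp51*, a sterol demethylase, stood at 21.5 and 27.1 FPKM in the Lgr5-high and Lgr5-low knockout libraries, against 11.6 and 11.9 in WT Lgr5-high and 17.4 and 16.1 in WT Lgr5-low. It rose by 0.74 ± 0.08, adjusted p = 0.0317, and knockout and WT did not overlap. Called enzymes of the list also included *Hmgcs1* (0.49), *Sqle* (0.75), *Nsdhl* (0.78) and *Msmo1* (0.58). The desaturase gene *Scd2*, of fatty acid synthesis, stood at 40.2 and 50.2 FPKM in knockout, against 13.6 and 20.6 in WT Lgr5-high and 16.9 and 23.8 in WT Lgr5-low (1.25 ± 0.20, adjusted p = 0.0481), also above all WT libraries.

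Of 26 genes of ribosome biogenesis and the Myc program, 6 passed, all higher, against 2.52% of all genes tested, and the median was 0.41. The scaling moved the count of calls between 1 and 8. Above both WT libraries in both gates lay 23 of them, and 0 lay below. The share of all genes tested above WT in both gates or below WT in both was 46.504%. *Bysl*, needed to assemble the small ribosomal subunit, stood at 15.7 and 14.98 FPKM in knockout, against 8.77 and 8.58 in WT Lgr5-high and 8.29 and 7.14 in WT Lgr5-low (0.83 ± 0.09, adjusted p = 0.0303). The nucleolar genes *Ncl* (0.62), *Nolc1* (0.56), *Ddx21* (0.55), *Rrp12* (0.48) and *Tcof1* (0.43) passed as well. *Myc* itself stood at 24.9 and 12.5 FPKM in knockout, against 31.2 and 23.5 in WT Lgr5-high and 16.3 and 8.92 in WT Lgr5-low, between its WT libraries in each gate (-0.04 ± 0.24, adjusted p = 0.946). Among 27 genes of the integrated stress response and serine synthesis, 3 passed, all higher, and the median was 0.33. *Psat1*, an aminotransferase of serine synthesis, stood at 13.6 and 9.92 FPKM in knockout, against 5.40 and 7.44 in WT Lgr5-high and 3.98 and 4.53 in WT Lgr5-low (1.02 ± 0.13, adjusted p = 0.0386). *Shmt2* (0.65) and *Mthfd2* (0.56), mitochondrial enzymes of folate metabolism, were the others. *Sdf2l1*, of the endoplasmic reticulum chaperone network, was the only 1 of 23 unfolded protein response genes to pass (0.56 ± 0.08, adjusted p = 0.0413). Of all genes tested 2.52% passed, and the *Sdf2l1* call was lost with equal FPKM sums. None of 16 heat shock and chaperone genes passed (limma, smallest adjusted p = 0.111).

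Goblet and enteroendocrine genes lay mostly above 0. In bulk RNA more cells of a type and more RNA per cell cannot be told apart. Of 19 goblet cell genes, 3 passed, all higher, 18 had a change above 0 and the median was 0.49. Among all genes tested 2.52% passed and 57.378% had a change above 0. Without the WT libraries numbered 1 no goblet gene was called (limma), and without those numbered 2 there were 4 calls higher and 1 lower. *Clca1*, a mucus-processing protease, stood at 80.7 and 465 FPKM in the Lgr5-high and Lgr5-low knockout libraries, against 36.3 and 38.3 in WT Lgr5-high and 203 and 228 in WT Lgr5-low. It rose by 1.10 ± 0.09, adjusted p = 0.0154, by nearly the same amount in both gates (1.09 in Lgr5-high and 1.11 in Lgr5-low). *Agr2*, a disulfide isomerase needed for mucin folding, stood at 229.6 and 659.8 FPKM in knockout, against 123 and 125 in WT Lgr5-high and 251 and 277 in WT Lgr5-low (1.10 ± 0.13, adjusted p = 0.0347). *Zg16*, a lectin of mucus, stood at 179.9 and 1441 FPKM in knockout, against 90.1 and 68.4 in WT Lgr5-high and 868 and 767 in WT Lgr5-low (1.003 ± 0.16, adjusted p = 0.0461). All 3 were above WT within each gate. All 25 enteroendocrine genes tested had a change above 0, with a median of 0.50, and 1 passed, against 2.52% of all genes tested. Without the WT libraries numbered 1 that median was 0.80, and without those numbered 2 it was 0.20, with 20 of 25 above 0. The gene that passed was *Nts*, which encodes the gut peptide neurotensin, at 4.27 and 12.9 FPKM in knockout, against 0.423 and 1.05 in WT Lgr5-high and 3.56 and 3.35 in WT Lgr5-low (1.63 ± 0.16, adjusted p = 0.0287). The hormone genes *Pyy* (1.42 ± 0.27, adjusted p = 0.0570) and *Gcg* (1.23 ± 0.30, adjusted p = 0.0930) were above WT in both gates and did not pass. *Hes6*, a Hes-family transcription factor, was the only 1 of 16 genes of Notch signalling and secretory choice to pass (0.70 ± 0.09, adjusted p = 0.0409). Of all genes tested 2.52% passed, and the *Hes6* call was lost with equal FPKM sums. None of 23 Paneth cell genes passed (limma, median -0.13, smallest adjusted p = 0.270), and none of 11 tuft cell genes (median -0.13, smallest adjusted p = 0.397).

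**Figure D3:**
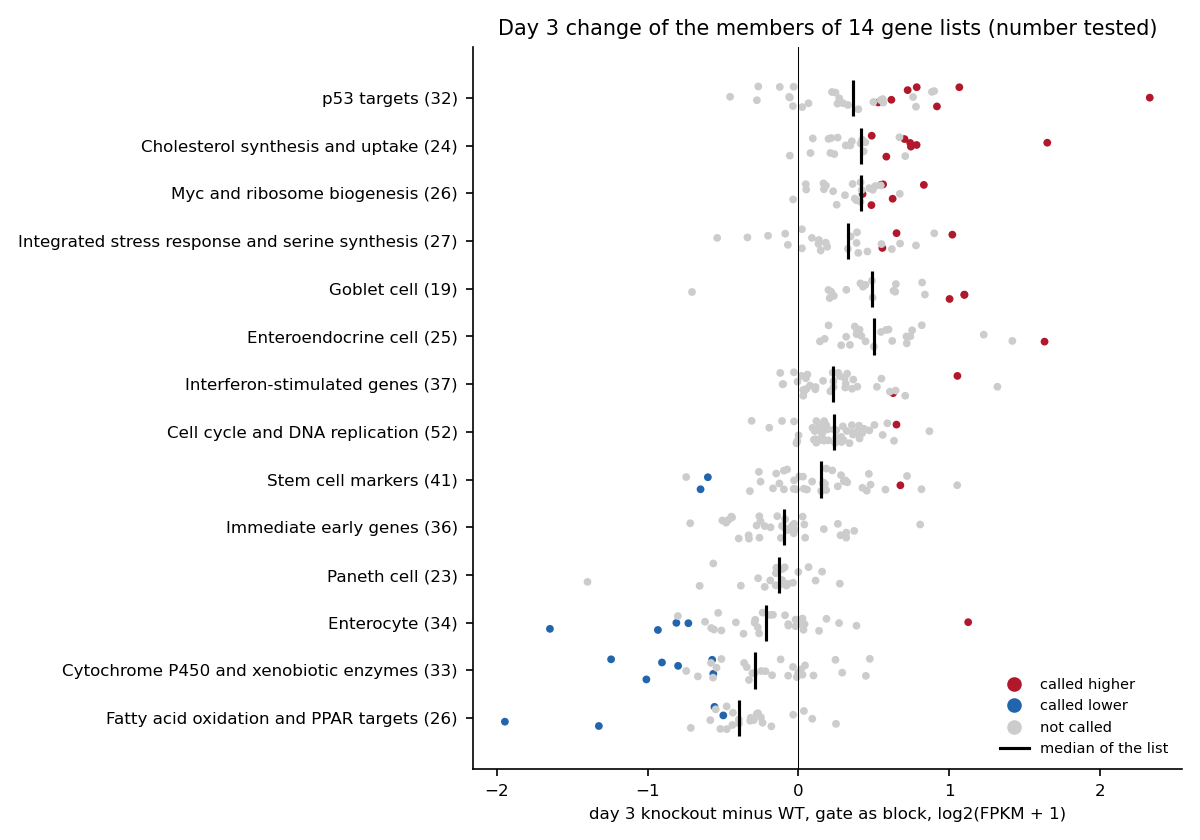
Day 3 change of each tested member of 14 gene lists, log2(FPKM + 1) with gate as block (x axis), with members called higher in red, called lower in blue and the rest in grey, and each list's median as a black bar. Among these lists the enteroendocrine median is 0.50 and that of fatty acid oxidation -0.40.

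Some lipid oxidation genes fell. Of 26 genes of fatty acid oxidation and PPAR targets, 4 passed, all lower, against 2.52% of all genes tested, and the median was -0.40. Below both WT libraries in both gates lay 20 of them, and 1 lay above. The share of all genes tested above WT in both gates or below WT in both was 46.504%. *Hsd17b13* (chromosome 5, 103955440 to 103977410), a lipid droplet enzyme, stood at 3.56 FPKM in the Lgr5-high and 6.30 in the Lgr5-low knockout library, against 15.2 and 19.9 in WT Lgr5-high and 24.0 and 28.1 in WT Lgr5-low. Both knockout libraries were far below all 4 WT libraries. The change was -1.95 ± 0.13 (adjusted p = 0.0101), and it passed in 16 of 21 alternative fits. *Cpt1a*, which carries fatty acids into mitochondria, stood at 40.4 and 51.2 FPKM in knockout, against 62.3 and 59.8 in WT Lgr5-high and 73.8 and 75.0 in WT Lgr5-low (-0.56 ± 0.07, adjusted p = 0.0393). *Plin2*, a lipid droplet coat protein, was called too (-0.50 ± 0.08, adjusted p = 0.0460). Of 33 genes of cytochrome P450 and xenobiotic metabolism, 6 passed, all lower, against 2.52% of all genes tested, with a median of -0.29. Without the WT libraries numbered 1 the median was -0.40 with no call (limma). Without those numbered 2 it was -0.23, with 7 calls lower, 1 higher and 12 of 33 genes above 0. *Ces2a*, a carboxylesterase, stood at 7.27 and 25.7 FPKM in knockout, against 16.2 and 14.8 in WT Lgr5-high and 50.1 and 56.4 in WT Lgr5-low (-1.01 ± 0.09, adjusted p = 0.0191). *Ugt1a1*, the bilirubin-conjugating enzyme, stood at 21.2 and 49.9 FPKM in knockout, against 59.6 and 66.1 in WT Lgr5-high and 89.9 and 108 in WT Lgr5-low (-1.24 ± 0.16, adjusted p = 0.0386). Its exons are shared with other genes of its cluster, so the split between them is uncertain. The remaining calls were the cytochrome P450 genes *Cyp2s1* (-0.91) and *Cyp39a1* (-0.56), the sulfotransferase *Sult1b1* (-0.80) and the receptor gene *Nr1i3* (-0.57).

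Of 34 enterocyte genes, 4 passed lower and 1 higher, against 2.52% of all genes tested, with a median of -0.21. Without the WT libraries numbered 1 the median was -0.47 with no call (limma), and without those numbered 2 it was 0.014, with 18 of 34 above 0, so its direction rests on which WT libraries are kept. *Reg1*, a secreted lectin, stood at 8.19 and 78.2 FPKM in the Lgr5-high and Lgr5-low knockout libraries, against 31.3 and 22.1 in WT Lgr5-high and 236 and 289.9 in WT Lgr5-low. The Lgr5-low knockout library was above WT Lgr5-high, and below WT within its own gate. The change was -1.65 ± 0.17, adjusted p = 0.0298. *Khk*, the fructose kinase, stood at 18.3 and 42.97 FPKM in knockout, against 32.3 and 35.6 in WT Lgr5-high and 87.3 and 87.5 in WT Lgr5-low (-0.93 ± 0.08, adjusted p = 0.0213). *Fbp1*, a bisphosphatase of gluconeogenesis (-0.73), and *Prap1* (-0.81) were the other falls. *Fabp6*, the bile acid carrier of the ileum, went the other way, at 106 and 840.1 FPKM in knockout, against 43.7 and 45.0 in WT Lgr5-high and 347 and 495 in WT Lgr5-low (1.13 ± 0.16, adjusted p = 0.0444). In the list of 18 genes of intestinal region, *Fabp6* and *Bex1* (0.91) passed higher and *Reg1* and *Gata4* lower. *Gata4*, a transcription factor of the small intestine that is low in the ileum, stood at 30.7 and 33.7 FPKM in knockout, against 41.0 and 40.5 in WT Lgr5-high and 50.0 and 47.2 in WT Lgr5-low (-0.45 ± 0.08, adjusted p = 0.0481). The labels do not say from which stretch of intestine each library came, and the part of position along the gut in these values was not tested.

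Further genes had large falls in both gates. *Pm20d1*, a secreted enzyme that makes N-acyl amino acids, stood at 1.68 and 3.44 FPKM in the Lgr5-high and Lgr5-low knockout libraries, against 7.78 and 7.53 in WT Lgr5-high and 11.3 and 12.4 in WT Lgr5-low. Both knockout libraries were below all 4 WT libraries. The change was -1.61 ± 0.08, adjusted p = 0.00478, and it passed in 16 of 21 alternative fits. *Pbld1*, a protein related to bacterial phenazine synthesis enzymes, stood at 2.78 and 1.96 FPKM in knockout and at 5.20 to 8.31 in WT (-1.23 ± 0.16, adjusted p = 0.0409). *Edn2*, an endothelin peptide, stood at 12.5 and 11.4 FPKM in knockout and at 23.04 to 32.9 in WT (-1.14 ± 0.15, adjusted p = 0.0411). *Nkiras2*, an inhibitor of NF-kappaB signalling, stood at 4.98 and 6.77 FPKM in knockout and at 11.7 to 18.1 in WT (-1.19 ± 0.08, adjusted p = 0.0101). None of these 4 genes overlapped between knockout and WT. They were picked as large falls outside WT in both gates, so the separation follows largely from that choice. Of all genes tested, 46.504% lay outside both WT libraries of their gate on the same side in both gates, a share that counts rises too. *Arg2*, the mitochondrial arginase, changed by -1.28, *C1qtnf12*, a secreted metabolic factor, by -1.21, *Dmbt1*, a mucosal scavenger receptor, by -1.21, *Car4*, a membrane carbonic anhydrase, by -1.16 and *Bco2*, a carotenoid-cleaving oxygenase, by -1.09.

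*Acta1* (chromosome 8, 123891769 to 123894751), the actin of skeletal muscle, stood at 20.9 FPKM in the Lgr5-high and 16.8 in the Lgr5-low knockout library, against 2.25 and 2.36 in WT Lgr5-high and 1.64 and 1.71 in WT Lgr5-low. Knockout and WT were far apart in both gates. It rose by 2.73 ± 0.07, adjusted p = 0.000756 and passed in all 21 alternative fits. The stromal, endothelial and muscle markers, which include it, summed to 30.2 and 31.0 FPKM in knockout, against 9.79 and 8.53 in WT Lgr5-high and 11.5 and 11.8 in WT Lgr5-low. Without *Acta1* the other 22 summed to 9.36 and 14.2 FPKM in knockout, against 7.54 and 6.17 in WT Lgr5-high and 9.88 and 10.1 in WT Lgr5-low. The smooth muscle genes *Acta2*, *Des* and *Myh11* were at or under 0.027 FPKM in all 6 libraries. The 250 bases upstream of the *Acta1* start (chr8:123894776-123895025, minus strand, GRCm38.p6, RefSeq) are printed because actin genes are known targets of serum response factor. Capitals mark the match to its CArG box, searched on both strands.
Acta1: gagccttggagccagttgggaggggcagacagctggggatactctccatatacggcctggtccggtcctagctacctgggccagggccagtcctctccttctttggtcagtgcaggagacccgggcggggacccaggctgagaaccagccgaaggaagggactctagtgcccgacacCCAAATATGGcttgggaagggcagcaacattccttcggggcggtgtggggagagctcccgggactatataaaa
A CArG box was present in 1.47% of RefSeq promoters of that length, in 1.21% of those of the genes tested and in 3.75% of those of the genes called higher. Promoters are printed only for *Mt2*, *Isg15* and *Acta1*, which held the motif searched for. In the same window *Phlda3* had no match to a p53 half-site (RRRCWWGYYY). *Cbr3* had none to an antioxidant response element (TGACNNNGC or TGAGNNNGC).

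*Etv4*, an ETS transcription factor downstream of ERK signalling, stood at 6.90 and 3.53 FPKM in knockout, against 1.63 and 1.23 in WT Lgr5-high and 0.714 and 0.603 in WT Lgr5-low (1.58 ± 0.12, adjusted p = 0.0153). *S100a6*, a calcium-binding protein, stood at 7.50 and 29.6 FPKM in knockout, against 2.40 and 2.88 in WT Lgr5-high and 10.02 and 7.30 in WT Lgr5-low (1.45 ± 0.17, adjusted p = 0.0340). Each was above WT within both gates. With *Tnfrsf12a*, the receptor of TWEAK (1.003 ± 0.14, adjusted p = 0.0413), *S100a6* made 2 calls higher among 17 genes of fetal-like epithelium and YAP targets, where *Edn2* was called lower and the median was 0.26. Of all genes tested 2.52% passed. Further rises among the 14 largest were the protease inhibitor *Serpina1b* (1.42), the complement gene *C3* (1.41), the acyltransferase *Mboat1* (1.20) and the N-terminal methyltransferase *Ntmt1* (1.20).

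A pair of gene models for *Nnt*, the mitochondrial nicotinamide nucleotide transhydrogenase, overlap on the same strand of chromosome 13. The model ENSMUSG00000025453 (119335448 to 119408997) stood at 19.0 and 12.3 FPKM in knockout, against 1.05 and 1.43 in WT Lgr5-high and 0.746 and 0.914 in WT Lgr5-low. The model ENSMUSG00000116207 (119335528 to 119408952) was listed at 0 in both knockout libraries, against 20.0 and 20.9 in WT Lgr5-high and 13.1 and 13.7 in WT Lgr5-low. The second model reached the level for testing in WT alone, so that its fall largely followed from that level. Since the models moved in opposite directions (3.02 and -4.14), the level of the locus cannot be read from either. At day 4 the second model stood at 6.85 to 15.5 FPKM and at day 6 at 6.49 and 6.84, so among the 12 tissue libraries it was listed at 0 at day 3 alone. As background, substrains of C57BL/6 differ by a deletion within *Nnt*, and the labels give no substrain. Neither a different substrain nor different processing of the day 3 libraries can be told apart from knockout at day 3, for *Nnt* or for any other gene. *Tmem267*, a gene on the same chromosome (119488039 to 119611059), stood at 6.57 and 5.82 FPKM in knockout, against 2.03 and 1.94 in WT Lgr5-high and 1.49 and 1.71 in WT Lgr5-low (1.37 ± 0.09, adjusted p = 0.00938). At day 4 it stood at 4.87 and 4.44 FPKM in the Lgr5-high and Lgr5-low libraries numbered 1, and at 1.62 and 1.19 in those numbered 2. Counting is not stated to have used strand, so genes with an opposite-strand neighbour may hold fragments of it, among them *Acta1*, *Mt2*, *Mboat1*, *Tmem267*, *Bysl*, *Cyp51*, *Arg2*, *Bco2*, *Dmbt1*, *Nkiras2* and *Pbld1*.

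Of 41 stem cell markers, 1 passed higher and 2 lower, against 2.52% of all genes tested, with a median of 0.15. *Phlda1*, a marker of crypt stem cells in human tissue, stood at 39.0 and 24.8 FPKM in knockout, against 27.7 and 28.4 in WT Lgr5-high and 12.8 and 13.1 in WT Lgr5-low (0.68 ± 0.11, adjusted p = 0.0494). *Rnf43*, a ubiquitin ligase that removes Wnt receptors, stood at 11.8 and 7.31 FPKM in knockout, against 19.3 and 21.1 in WT Lgr5-high and 11.6 and 11.1 in WT Lgr5-low (-0.65 ± 0.08, adjusted p = 0.0386). *Vdr*, the vitamin D receptor, stood at 65.1 and 43.1 FPKM in knockout, against 97.6 and 102 in WT Lgr5-high and 62.3 and 68.9 in WT Lgr5-low (-0.60 ± 0.08, adjusted p = 0.0409). All 3 were outside WT within each gate. *Lgr5* had a change of -0.02 ± 0.11 (adjusted p = 0.945), *Ascl2*, a stem cell transcription factor, 0.31 ± 0.17 (adjusted p = 0.335) and *Olfm4*, a secreted stem cell marker, 0.17 ± 0.17 (adjusted p = 0.613). Among 19 Wnt targets, with a median of 0.17, *Tcf7* passed higher (0.73 ± 0.11, adjusted p = 0.0460) and *Rnf43* lower. *Cd44*, a surface glycoprotein in both lists, stood at 23.5 and 10.6 FPKM in knockout, against 10.9 and 15.7 in WT Lgr5-high and 3.68 and 3.68 in WT Lgr5-low and missed the threshold (1.05 ± 0.18, adjusted p = 0.0517).

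*Klf9*, *Fosb* and *Purb*, which with *Ascl2* were overexpressed in the organoids of the series, did not pass at day 3. *Fosb* stood at 76.6 and 57.7 FPKM in knockout, against 92.6 and 108 in WT Lgr5-high and 88.0 and 76.5 in WT Lgr5-low, below WT within each gate (-0.44 ± 0.11, adjusted p = 0.0912). *Klf9* had a change of -0.03 ± 0.13, adjusted p = 0.912, and *Purb* of 0.03 ± 0.11, adjusted p = 0.907. None of 36 immediate early genes passed (limma, median -0.10, smallest adjusted p = 0.0617). In both gates 13 of them were below WT and 4 above, where 46.504% of all genes tested lay outside WT on the same side. Of 52 cell cycle and DNA replication genes, 46 had a change above 0, against 57.378% of all genes tested, and the median was 0.24. Only 1 of the 52 passed, against 2.52% of all genes tested. It was *Rrm2*, a subunit of ribonucleotide reductase, at 32.4 and 29.7 FPKM in knockout, against 19.5 and 20.6 in WT Lgr5-high and 19.4 and 18.3 in WT Lgr5-low (0.65 ± 0.07, adjusted p = 0.0340). *Mki67*, the proliferation marker, did not pass (0.24 ± 0.11, adjusted p = 0.255). Of 22 m6A writers, erasers and readers, *Wtap*, the scaffold of the writer complex, passed higher, at 16.5 and 15.2 FPKM in knockout, against 11.5 and 11.5 in WT Lgr5-high and 10.9 and 10.4 in WT Lgr5-low (0.48 ± 0.07, adjusted p = 0.0454). No other member, *Mettl3* included, passed, where 2.52% of all genes tested did. The calls of *Rrm2* and *Wtap* were lost with equal FPKM sums.

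In the remaining lists no gene passed with limma. The smallest adjusted p was 0.0673 among 15 circadian clock genes, 0.116 among 11 of epithelial defence, 0.0654 among the 7 immune markers that were tested, 0.538 among 4 sex-linked genes and 0.271 among 13 genes of the mitochondrial genome. No red blood cell marker reached the level for testing, and *Acta1* was the only call among 4 stromal and muscle genes tested. The sign of a list's median was the same under every scaling tried, except for MHC class II and the sex-linked genes. Without members that reached the level for testing in 1 genotype alone, the medians of the goblet, tuft cell and xenobiotic lists were 0.49, -0.14 and -0.27. Those of the immune cell, cell death and circadian lists were -0.00058, -0.014 and -0.080, where all tested members gave -0.39, -0.080 and -0.050. The counts of calls in these lists stayed the same. The sign of a median depended more on the WT libraries. Without those numbered 1 the medians of the tuft cell (0.074), immune cell (0.22), cell death (0.0042) and sex-linked (-0.045) lists had the other sign, and without those numbered 2 so had those of the enterocyte (0.014), intestinal region (0.063), Notch (-0.038) and MHC class II (-0.14) lists. The medians of the p53 list were 0.39 and 0.42 without the WT libraries numbered 1 and 2, those of cholesterol synthesis 0.42 and 0.42, those of ribosome biogenesis 0.42 and 0.37 and those of fatty acid oxidation -0.39 and -0.40. Without the WT libraries numbered 1 the calls in these 4 lists were 0, 1, 0 and 1, and without those numbered 2 they were 12, 8, 5 and 8.

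Whether the change differed between the gates was tested with all 12 tissue libraries sharing 1 estimate of the spread, so each lone day 3 library was assumed to vary like the other groups. Calls were made for 3 of 13024 genes (0.023%), with 85 at an unadjusted p under 0.05. The 3 were *Hist2h2aa1*, *Ramp2* and *Gm20634*, each overlapping another gene on the same strand and at 0 in both WT Lgr5-low libraries. *Hist2h2aa1* and *Gm20634* were also at 0 in every day 4 and day 6 library, and *Ramp2* was at 0.0292 to 0.0812 FPKM there. For these 3 genes the spread was thus taken largely from groups at or near 0. *Hist2h2aa1*, a replication histone, stood at 0 FPKM in the Lgr5-high and 2.86 in the Lgr5-low knockout library, against 9.67 and 7.84 in WT Lgr5-high and 0 and 0 in WT Lgr5-low. Among the genes with the smallest p that did not pass were *Tmem127*, a membrane protein, at 2.07 and 14.1 FPKM in knockout, against 14.1 and 11.9 in WT Lgr5-high and 14.2 and 14.5 in WT Lgr5-low (difference of changes -2.16 ± 0.39, adjusted p = 0.902), *Crk* (-3.10 ± 0.76), *Tnfsf13* (-1.92 ± 0.72), *Msra* (1.96 ± 0.50), *Vps25* (1.39 ± 0.31) and *Ldah* (1.21 ± 0.31). *Phlda3* had a difference of changes of -0.17 ± 0.40, *Acta1* of -0.01 ± 0.33, *Mt2* of 0.30 ± 0.54, *Hsd17b13* of -0.12 ± 0.47 and *Cbr3* of -1.05 ± 0.42 (adjusted p = 1). A p that misses the threshold does not show that the gates changed alike.

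The largest differences within a gate were partly ones in which the WT libraries disagreed. *Cldn2*, a pore-forming claudin, was past the fold upward in Lgr5-high and downward in Lgr5-low, at 88.7 and 11.7 FPKM in knockout, against 82.1 and 0.0188 in WT Lgr5-high and 52.5 and 48.3 in WT Lgr5-low. The WT Lgr5-high libraries differed from each other far more than knockout did from WT library 1. *Tff2*, a trefoil peptide, stood at 16.1 and 10.5 FPKM in knockout, against 1.57 and 0.0953 in WT Lgr5-high and 5.62 and 0.109 in WT Lgr5-low (2.72 ± 0.79, adjusted p = 0.123). *Reg3b*, an antimicrobial lectin, stood at 35.3 and 181 FPKM in knockout, against 274 and 49.8 in WT Lgr5-high and 1012 and 386 in WT Lgr5-low (-1.74 ± 0.73, adjusted p = 0.228). Neither passed, and for both the WT libraries of a gate were far apart. The other leading genes within a gate, beside *Acta1*, *Hsd17b13*, *Tmem127*, *Hist2h2aa1* and the *Nnt* models, were *Myl12b*, *Scamp4*, *Exosc6* and a pair of models of *Sept2*, all of which share exons with another gene on the same strand.

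The 4 day 4 libraries, 2 per gate with the same genotype and tamoxifen labels, were set against the day 3 libraries without use of WT. Of 12463 genes, 3 were called higher (0.0241%) and 3 lower (0.0241%), and 764 had an unadjusted p under 0.05. *Tgtp2*, an interferon-induced GTPase, was higher at day 4 by 2.62 ± 0.26 (adjusted p = 0.0478). It stood at 17.7 and 24.5 FPKM in day 4 Lgr5-high and 10.98 and 18.6 in day 4 Lgr5-low, against 2.54 and 1.51 in the day 3 libraries. *Gm8797* and *Nnt* model ENSMUSG00000116207 were the other rises, and *Gm49450*, a *Myl12b* model and *Nnt* model ENSMUSG00000025453 the falls. All of these calls but *Tgtp2* and *Gm8797* overlap another gene on the same strand. *Gm49450* and the *Myl12b* model were at 0 in all 4 day 4 libraries, and *Nnt* model ENSMUSG00000116207 at 0 in both day 3 libraries. They met the level for testing through 1 day alone, so that their difference between the days largely followed from that level. Leaving out day 4 Lgr5-high library 2 gave 42 calls and any other single library 2 or 3, while dropping both day 4 libraries numbered 1 gave 973 and both numbered 2 gave 222. *Cbr3* was at 1.80 ± 0.19 relative to day 3 (adjusted p = 0.0649), *Isg15* at 2.30 ± 0.33 (adjusted p = 0.118), *Phlda3* at 0.69 ± 0.22 (adjusted p = 0.678) and *Acta1* at -0.16 ± 0.20 (adjusted p = 0.942), none of which passed.

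Along the days, *Phlda3* stood at 0.448 to 1.62 FPKM in WT, 10.6 and 7.34 at day 3, 11.2 to 19.7 at day 4 and 39.6 and 33.0 at day 6. *Isg15* stood at 1.22 to 7.02 FPKM in WT, 6.18 and 8.41 at day 3, 31.0 to 72.1 at day 4 and 131 and 206 at day 6. For both genes every day 6 library was above every day 3 library. *Acta1* stood at 1.64 to 2.36 FPKM in WT, 20.9 and 16.8 at day 3, 14.4 to 20.3 at day 4 and 10.4 and 9.55 at day 6. Its highest single value was thus at day 3. *Pbld1* stood at 5.20 to 8.31 FPKM in WT, 2.78 and 1.96 at day 3, 0.398 to 1.26 at day 4 and 0.0919 and 0.115 at day 6. The day 6 labels name no gate, so these levels are a description.

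**Figure D4:**
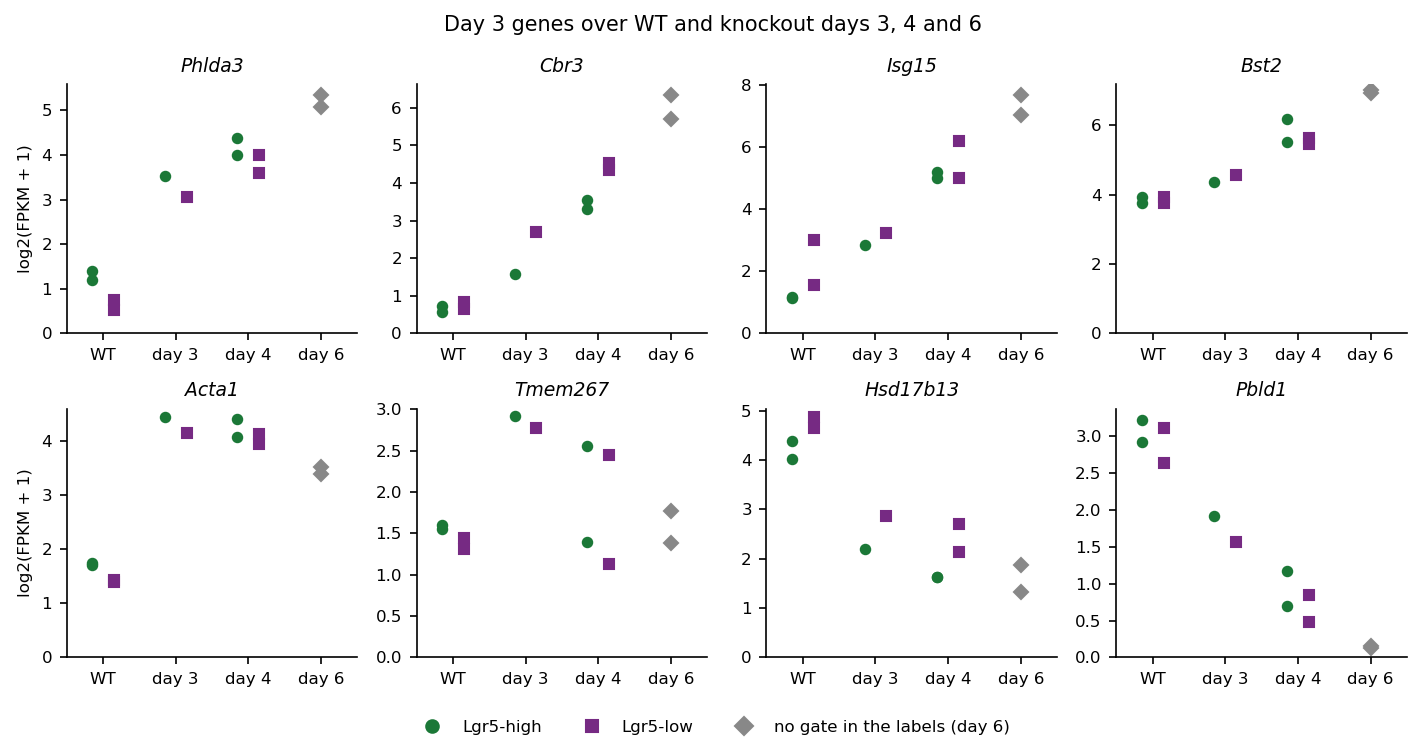
log2(FPKM + 1) of 8 genes in WT and at knockout days 3, 4 and 6, with each point 1 library: green circles for Lgr5-high, purple squares for Lgr5-low, grey diamonds for day 6 without a gate. *Phlda3* and *Isg15* are highest at day 6 (39.6 and 33.0 and 131 and 206 FPKM), *Pbld1* is lowest there (0.0919 and 0.115 FPKM), and *Tmem267* has 2 high and 2 low libraries at day 4.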

How the data were processed

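RNA of sorted crypt cells was sequenced from libraries made with the NEBNext Ultra kit, per the labels' protocols. The authors deposited 1 FPKM value per gene and library, per the file headers. The submitters' processing notes name HISAT2 2.1.0, StringTie 1.3.3b and mm10, with no roles given, and whether counting used strand is not given in the sources used here. Of 54838 gene rows, 54723 had a symbol in GENCODE M21, whose GRCm38 coordinates are those of mm10. No pair of libraries held identical values. The rough depth of a library comes from the step that 1 fragment makes in the FPKM of 13375 genes that have a single exon and transcript.

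Values were analysed as log2(FPKM + 1) without further scaling. Genes reaching 1 FPKM in at least 2 libraries of a fit were tested with limma 3.58.1 (lmFit, eBayes with trend, R 4.3.3), two-sided, with Benjamini-Hochberg adjustment over all genes tested, and called at an adjusted p under 0.05. The fit of knockout against WT held 6 libraries with gate as a block and had 3 residual degrees of freedom. An added fit took WT libraries of 1 number, and the 2 knockout libraries, as 3 correlated sets (limma's duplicateCorrelation). The gate difference was a contrast between group means over 12 tissue libraries, and day 4 against day 3 had gate as a block. Scripts were tested on simulated data. Figures and tables used Python 3.11.15, pandas 2.3.3 and matplotlib 3.10.9. Promoter sequences are RefSeq's.

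Named genes were the 14 largest rises and 14 largest falls among calls at 5 FPKM or more, outside WT in both gates and not predicted genes or pseudogenes. Added to them were the leading genes of the within-gate, gate-difference and day 4 comparisons, a fixed set of marker genes, and up to 4 leading members of each of 35 gene lists. A few of those genes are left out here. Further called members of a list, and pseudogenes, were named after their values were seen. The members and lists were chosen with earlier results of these data known. Alternatives changed the pseudocount, filter, scaling, length trend, variance trend, source of the spread, gate term, fold threshold, same-strand overlaps and libraries left out.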

Additional observations from a re-analysis of the deposited data

Results flagged for a closer look

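In 3 genes the day 3 change differed between the gates past the threshold (limma, group means over 12 tissue libraries, adjusted over 13024 genes). *Ramp2*, a partner of calcitonin-family receptors, stood at 0.0178 FPKM in the Lgr5-high and 4.99 in the Lgr5-low knockout library, against 2.61 and 2.51 in WT Lgr5-high and 0 in both WT Lgr5-low libraries. The Lgr5-low change subtracted from the Lgr5-high one gave -4.39 (adjusted p = 0.000666). *Hist2h2aa1* had a difference of -5.23 (adjusted p = 0.000601). *Gm20634*, which overlaps *Hist2h2aa1* on the same strand, was listed at 0 in the Lgr5-high and stood at 2.92 FPKM in the Lgr5-low knockout library, against 1.25 and 0.681 in WT Lgr5-high and 0 in both WT Lgr5-low libraries (difference -2.93, adjusted p = 0.0427). *Ramp2* overlaps *Vps25* on the same strand. Each of the 3 rests on 1 knockout library per gate, and the part of fragment assignment between overlapping genes was not tested. All 3 were at or under 0.0812 FPKM in every day 4 and day 6 library, so their spread came largely from groups at or near 0.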

How the results depend on the processing

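The count of 311 genes for knockout against WT became 13 with no filter on low values, 132 with equal FPKM sums, 153 without a variance trend, 6 with the spread of 12 tissue libraries, 10 without the gate term, 562 without genes that overlap on the same strand, then 24 with libraries of 1 number as correlated sets, and 320 with a filter at 3 libraries, of which 298 were among the 311. The last 3 were chosen after seeing the data. Leaving out libraries gave 3 to 833. Of 66 called genes chosen by the naming rule, 2 passed in every alternative, 11 in at least 12 and 32 in at most 9. For genes past the fold, the counts of both gates, Lgr5-high and Lgr5-low became 350, 837 and 1005 at a log2 threshold of 0.58, then 13, 28 and 25 at a threshold of 2, and 149, 445 and 467 with a pseudocount of 0.1. With a filter at 5 FPKM Lgr5-high had 117, and without same-strand overlaps Lgr5-high had 97 and Lgr5-low 108. Leaving out WT libraries gave 75 to 117 in both gates, 241 to 327 in Lgr5-high and 267 to 327 in Lgr5-low. The 3 gate differences became 298 with no filter and 1 with the spread of the 6 libraries, and 2 to 3 with a library left out. The 6 calls of day 4 against day 3 became 0 with no filter (limma, with 1592 of 27961 genes at an unadjusted p under 0.05) and 2 to 973 with libraries left out. Apart from the alternatives that test other genes or fewer libraries, the cause was not tested.

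Some genes that did not pass changed sign. *Lgr5* was at 0.0313 with a pseudocount of 0.1 and at 0.0117 with the length trend taken out. *Purb* was at -0.0227 with median ratios and -0.0260 with quantile normalization, and *Crk* at -0.00203 with quantile normalization. With libraries left out, the lowest and highest log2 changes were -0.15 and 0.11 for *Lgr5*, -0.10 and 0.15 for *Purb*, -1.48 and 1.62 for *Crk*, -0.16 and 0.11 for *Klf9*, -0.33 and 0.26 for *Myc*, -0.0342 and 0.66 for *Ascl2* and -0.15 and 0.48 for *Olfm4*. They were -2.01 and 3.28 for *Cldn2*, -3.28 and 1.95 for *Hist2h2aa1*, -1.85 and 1.39 for *Scamp4*, -1.45 and 0.48 for *Tnfsf13*, -0.71 and 2.94 for *Exosc6*, -1.46 and 0.50 for *Msra*, -1.97 and 0.17 for *Sept2* model ENSMUSG00000026276 and -0.88 and 0.51 for *Vps25*.

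No paired analysis was possible because the day 3 libraries carry no replicate number that pairs them with WT libraries. Between the gates, the differences of WT library 1 from WT library 2 had a Pearson r of 0.451 across 12341 genes, which are not independent replicates.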

Other observations

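The 2 largest falls in both gates were in pseudogenes, followed by *Gm27505*, annotated only as a miscellaneous RNA, and a model of *Nnt*. The rule for named genes leaves out pseudogenes and predicted genes, and the genes below were chosen after their values were seen. *Gm8730*, a processed pseudogene, stood at 16.5 FPKM in the Lgr5-high and 10.98 in the Lgr5-low knockout library, against 727 and 1396 in WT Lgr5-high and 606 and 1028 in WT Lgr5-low (limma, adjusted p = 0.00478). *Gm9625* stood at 2.21 and 1.40 FPKM in knockout, against 99.2 and 242 in WT Lgr5-high and 81.0 and 165 in WT Lgr5-low. *Usf2-ps1* was listed at 0 in both knockout libraries, against 7.13 and 8.12 FPKM in WT Lgr5-high and 6.74 and 6.51 in WT Lgr5-low. *Gm27505* stood at 0.214 and 0.204 FPKM in knockout, against 15.75 and 21.9 in WT Lgr5-high and 35.5 and 36.99 in WT Lgr5-low. It overlaps *Neat1* on the same strand. A pseudogene can share fragments with its parent gene, and the part of that in these values was not tested. *Slc15a2*, a peptide transporter, was listed at 0 in both knockout libraries, against 1.994 and 1.296 FPKM in WT Lgr5-high and 1.27 and 0.832 in WT Lgr5-low. *Usf2-ps1*, *Gm27505*, *Slc15a2* and the *Nnt* model met the level for testing through WT libraries alone. For them knockout below WT largely followed from that level.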
